A study of Mus musculus with 108 samples.

Results

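The mitochondrial carriers of the Slc25 family were followed in mouse liver after clofibrate and Wy-14643, which are both agonists of the nuclear receptor PPARα. Members were the genes whose platform symbol begins with Slc25a, with the exception of Slc25a20, together with the uncoupling proteins Ucp2 and Ucp3. A named probe was found for 45 of the 46 members, out of 19514 genes with a probe of a single symbol, and Ucp2 was not analysed here. Values were listed on at least some arrays for 39 members, and 37 could be compared between a compound and its vehicle, 35 in each arm. Slc25a18, Slc25a31, Slc25a36, Slc25a41, Slc25a43 and Slc25a54 had a named probe and no listed value.

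Liver total RNA came from ovariectomized female C57BL/6 mice, whose age the labels do not give. All mice were dosed by gavage, with 300 mg/kg clofibrate, 300 mg/kg Wy-14643 or sesame oil alone as vehicle. Livers were taken 2, 4, 8, 12, 18 and 24 h after a single dose, or after daily dosing at 1, 4 and 14 days from the first dose. Each compound formed an arm of 54 arrays with its own vehicle arrays, so the 108 one-colour arrays fell into 36 groups of 3 replicates, which the design text calls biological. The labels list 24 h and 1 day as separate groups.

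Values are on the log2 scale of the deposited table, and every array was shifted to a common 75th percentile of the 12210 probes that had values on all arrays. Between 15750 and 22227 values were listed per array, and 156 to 537 probes per array stood at the scanner limit, near 16 on this scale. The hepatocyte markers Alb, Ttr, Apoa1, Trf and Fgb were listed on all arrays. In the clofibrate arm, vehicle replicate 1 at 4 days and vehicle replicate 1 at 14 days were nearly identical (r = 0.999981 over probes), so the counts at 4 and 14 days of clofibrate, and the values of Slc25a4 there, are given with and without that array.

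For part of the probes, the vehicle arrays of the arms deviated together by replicate number, although the labels name no shared animals. Across the 27 pairs of vehicle arrays with the same time and number, deviations from the group means correlated above 0.8 for 525 of 12210 probes. With the numbers shifted by 1 or by 2, 0 and 6 probes did so. Of the 27 vehicle arrays in the clofibrate arm, 21 were closest to the Wy-14643 arm's array of the same time and number. Among the carriers, this correlation across pairs was 0.98 for Slc25a25, 0.92 for Slc25a30 and 0.88 for Slc25a47, with median gaps of 0.08, 0.15 and 0.12 log2 units between the paired arrays. These were the highest 3 values of the 28 members, and the lowest was -0.16 for Slc25a46; the median over all probes was 0.27. Over whole arrays, every correlation between same-numbered vehicle arrays of the arms was over 0.1 at 3 of 9 times, with a range of -0.23 to 0.82. The labels do not say whether the comparisons of both compounds share control livers, and the fits of the difference between the compounds treat the vehicle groups of the arms as independent.

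**Figure D1:**
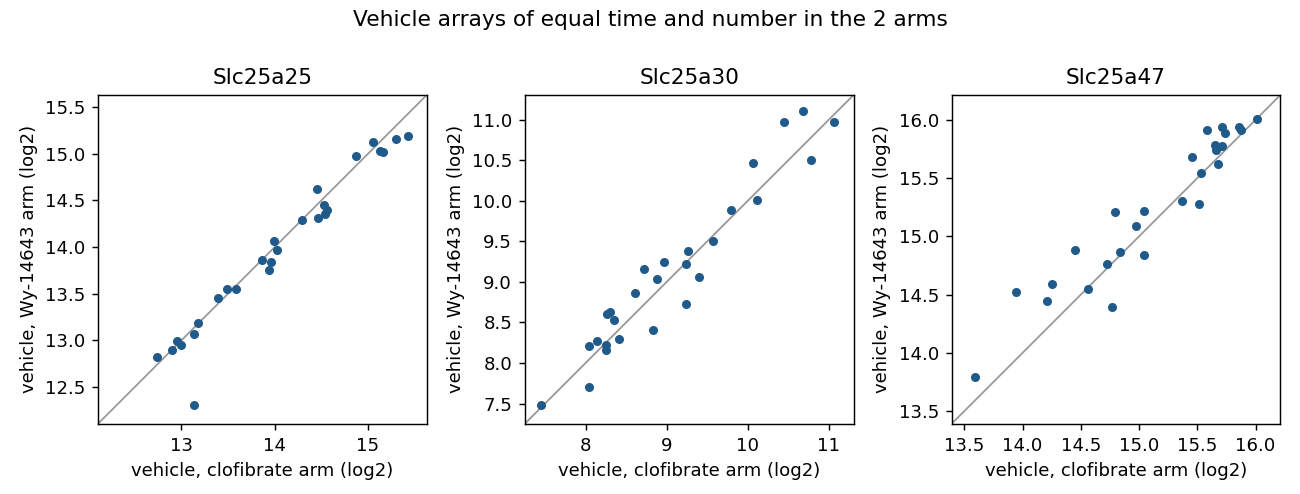
Each point is a pair of vehicle arrays with the same time and replicate number, the clofibrate arm on the x axis and the Wy-14643 arm on the y axis, both as scaled log2 levels, for Slc25a25, Slc25a30 and Slc25a47. Pairs lie near the diagonal, and the outlying point of Slc25a25 is the 14 day pair that holds the nearly identical clofibrate-arm array.

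Slc25 proteins sit mostly in the inner mitochondrial membrane and exchange metabolites, nucleotides, coenzymes and ions between the cytosol and the matrix. In liver they carry the ornithine of the urea cycle, the aspartate and glutamate of the malate-aspartate shuttle, the citrate used for lipid synthesis, the coenzyme A needed for fatty acid oxidation, and the ADP and ATP of oxidative phosphorylation. PPARα is the receptor through which fibrates induce fatty acid oxidation genes in rodent liver, usually by binding direct repeats of AGGTCA separated by a single base.

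The promoters of 4 members are shown for the members that carry the largest differences: Slc25a30 and Slc25a33, which rose most on average with Wy-14643, Slc25a4, which rose most at 14 days, and Slc25a29, which fell most on average. They are the bases immediately upstream of the RefSeq start in GRCm38.p6, read 5′ to 3′ on the minus strand, at chr14:75787038-75787287, chr4:149774268-149774517, chr8:46211063-46211312 and chr12:108835877-108836126. Capitals mark CACGTG, the E-box bound by clock and Myc-type factors.
Slc25a30: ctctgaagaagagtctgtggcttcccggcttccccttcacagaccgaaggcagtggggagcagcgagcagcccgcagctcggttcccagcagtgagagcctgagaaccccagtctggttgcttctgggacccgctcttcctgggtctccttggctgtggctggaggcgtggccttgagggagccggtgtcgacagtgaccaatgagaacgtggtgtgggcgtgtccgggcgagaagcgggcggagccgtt
Slc25a33: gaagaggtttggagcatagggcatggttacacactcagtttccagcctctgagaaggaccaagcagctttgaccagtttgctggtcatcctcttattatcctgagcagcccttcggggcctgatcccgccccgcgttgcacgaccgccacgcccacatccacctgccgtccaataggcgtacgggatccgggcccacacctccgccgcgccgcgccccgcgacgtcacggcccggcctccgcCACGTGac
Slc25a4: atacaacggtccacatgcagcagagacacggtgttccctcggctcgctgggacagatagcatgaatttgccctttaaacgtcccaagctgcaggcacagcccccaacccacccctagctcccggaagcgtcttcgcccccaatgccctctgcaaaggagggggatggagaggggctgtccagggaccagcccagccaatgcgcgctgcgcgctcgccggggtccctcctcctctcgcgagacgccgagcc
Slc25a29: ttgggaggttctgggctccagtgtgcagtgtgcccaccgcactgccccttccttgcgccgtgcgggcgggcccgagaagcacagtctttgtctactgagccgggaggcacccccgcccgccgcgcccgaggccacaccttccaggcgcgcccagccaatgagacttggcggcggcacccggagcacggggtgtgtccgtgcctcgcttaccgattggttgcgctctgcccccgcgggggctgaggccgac
Windows of 300 bases, from 250 before to 50 after the start, were available for 35 members with 44 starts and were searched on both strands. A direct repeat of AGGNCA, with any 1 base between the copies, was in 0 of the 44 and in 0.381% of 32851 windows of all genes. The half-site AGGTCA was in 5 (11.4%, against 16.3% of all), and CACGTG, which is its own reverse complement, was in 8 (18.2%, against 7.15% of all). Overlapping windows of Slc25a14 hold the same CACGTG, so by gene it was in 7 of 35, against 2187 of 27025. Of these genes Slc25a31 and Slc25a36 had no listed value. A match describes the letters only, and the windows do not cover distal elements.

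Wy-14643 raised 14 and lowered 9 of the 31 members that could be averaged over the 9 times, at an adjusted p below 0.05 in limma with Benjamini-Hochberg adjustment over all genes. In the same comparison 20.4% of 10479 genes were called higher and 36.4% lower. The median difference was 0.05 over the members and -0.07 over all genes. In whole liver, fewer cells of a type and less RNA per cell cannot be told apart. The split between higher and lower rested partly on the scaling: 35.9% of the genes called in the mean of Wy-14643 were higher with the shift to a common percentile, and 69.6% in the values as deposited, where Slc25a11 and Slc25a37 also passed as higher and Slc25a1, Slc25a12 and Slc25a28 did not pass. Clofibrate raised 4 of 28 members in its mean, Slc25a30, Slc25a33, Slc25a13 and Slc25a32, and lowered 0 (3.23% of 8413 genes were called higher and 2.46% lower, and 4 members were lower at an unadjusted p below 0.05). This direction also rested on the scaling. Of the genes called in the clofibrate mean 56.8% were higher, against 84.8% in the values as deposited. With scaling on all listed probes 19.9% were higher, and Slc25a13 and Slc25a32 lost the call. With the replicate number as a block the clofibrate mean called 11 members, 8 higher and 3 lower, beside 15.5% of all genes. Standard errors after ± are those of limma, with 3 arrays in each group.

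**Figure D2:**
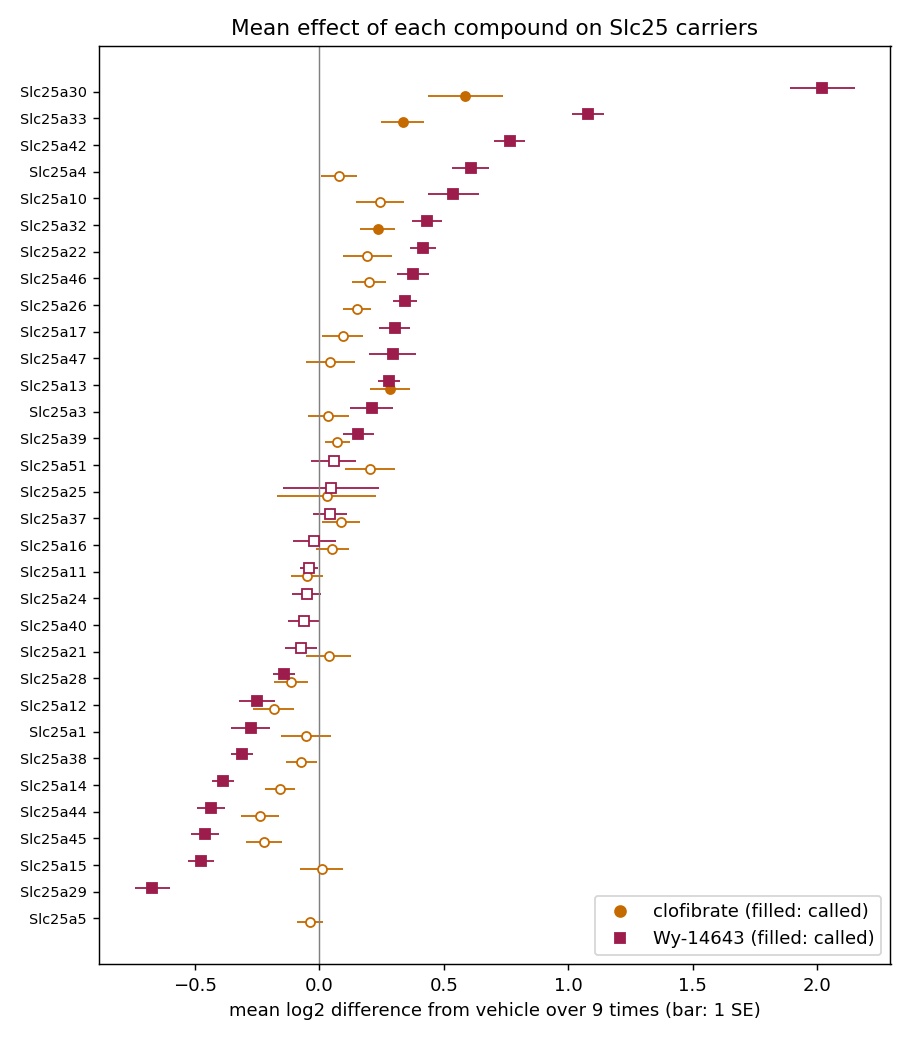
Mean difference from time-matched vehicle over the 9 times for each member, on the x axis in log2 units with bars of 1 standard error, for clofibrate and Wy-14643. Slc25a30 and Slc25a33 stand farthest to the right with Wy-14643, at 2.02 and 1.08, and Slc25a29 farthest to the left, at -0.67.

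At 2 h of Wy-14643 3 of 34 members were called (2 higher, 1 lower), beside 4.36% of all genes, and at 4 h 6 of 34 (5 higher, 1 lower), beside 10.3%. At 8 h there were 12 of 34 (8 higher, 4 lower, 16.2% of all genes), at 12 h 15 of 35 (8 and 7, 19.5%) and at 18 h 16 of 32 (10 and 6, 22.3%). At 24 h 14 of 34 were called (8 higher, 6 lower, 17.5% of all genes), and at 1 day 11 of 34 (5 and 6, 23.6%). After longer dosing fewer members were called than from 8 h to 1 day, 5 of 35 at 4 days (3 higher, 2 lower, 8.24%) and 6 of 35 at 14 days (3 and 3, 14.9%). The share of all genes called was lower there as well. The replicate block raised these counts to 5 at 2 h, 12 at 4 h, 16 at 8 h, 18 at 12 h, 20 at 18 h, 23 at 24 h, 18 at 1 day, 9 at 4 days and 14 at 14 days. It also raised the share of all genes called, which then lay between 15% at 2 h and 44.7% at 1 day.

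With clofibrate, members passed at 4 and 8 h. At 4 h 5 of 32 members were called (4 higher, 1 lower), beside 2.59% of 11137 genes, and at 8 h 6 of 27 (5 higher, 1 lower), beside 11.1% of 9707. At each other time 0 members were called, with 0.302% of all genes at 2 h, 1.32% at 12 h, 0.169% at 18 h, 0.0496% at 24 h, 0.158% at 1 day, 0.316% at 4 days and 0.0388% at 14 days. At an unadjusted p below 0.05 these times held 4, 4, 0, 1, 2, 4 and 1 members. Of all genes, 302, 964, 366, 87, 288, 796 and 188 passed at that level. The block called 1 member at 2 h, 7 at 4 h, 8 at 8 h, 2 at 12 h and 1 at 4 days. With it, 0.675%, 8.9%, 28.2%, 4.39% and 2.11% of all genes were called at these times. The counts at 4 and 14 days were also 0 without the nearly identical array.

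**Figure D3:**
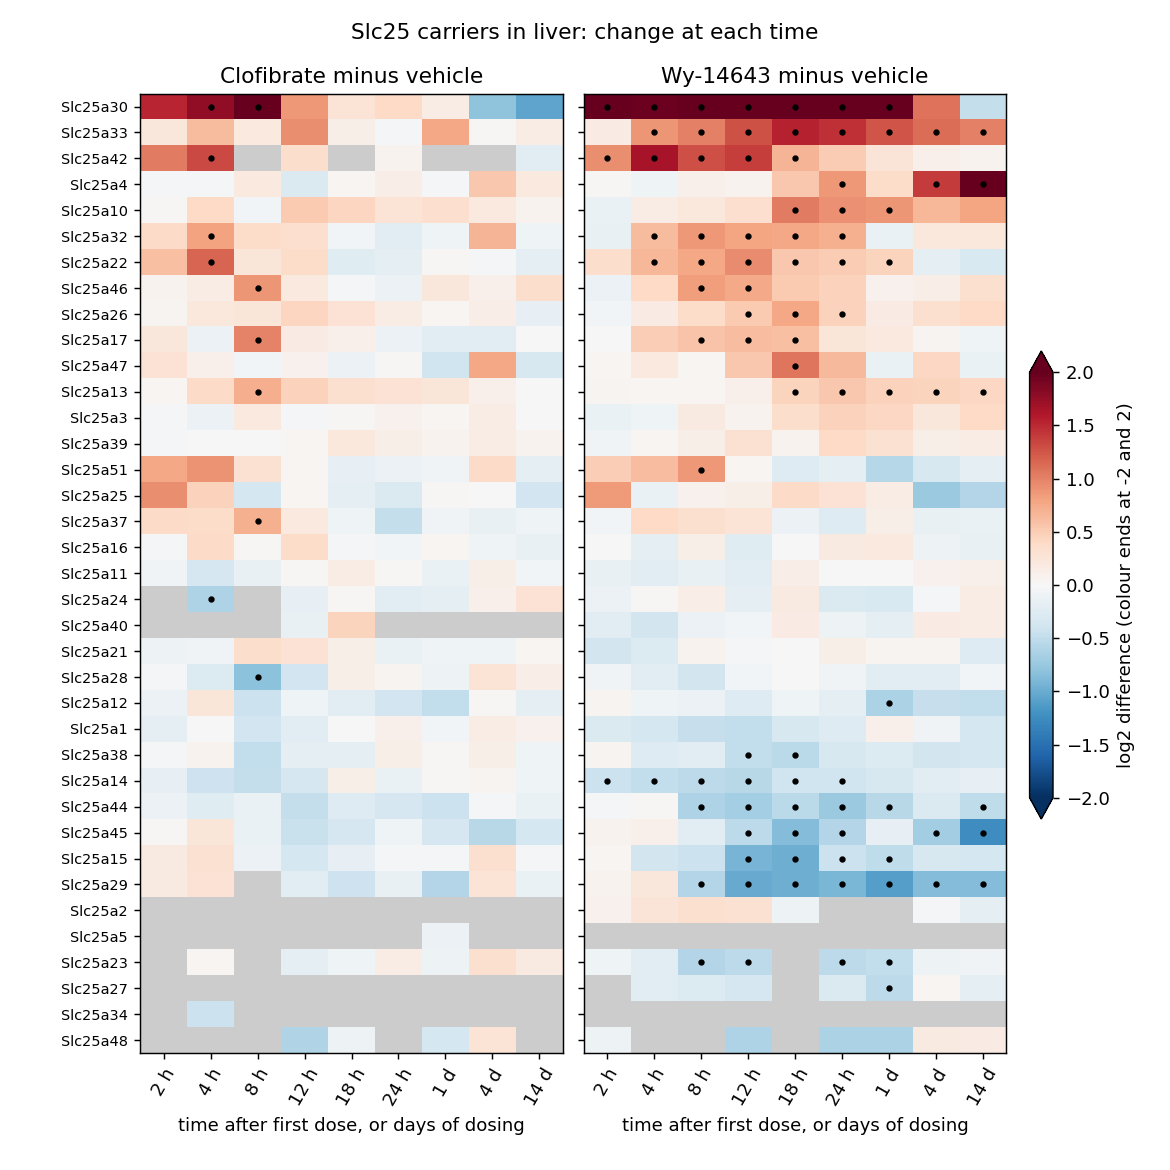
Difference from time-matched vehicle in log2 units (colour) for the 37 tested members (rows) at the 9 times (columns), clofibrate and Wy-14643 in separate panels. Dots mark adjusted p below 0.05 in limma and grey marks comparisons not tested; the dots lie at 4 and 8 h for clofibrate and at every time for Wy-14643.

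Among the carriers of coenzymes and other nucleotides, 5 of 7 tested members rose in the mean with Wy-14643 and 0 fell, beside 20.4% of all genes called higher and 36.4% lower. Slc25a33, a carrier of pyrimidine nucleotides, rose at 8 of the 9 times. At 18 h its 3 treated arrays read 13.82, 13.53 and 13.70 and its vehicle arrays 12.10, 12.33 and 11.98. All treated arrays lay above all vehicle arrays, a difference of 1.55 ± 0.20 (2.92-fold, limma adjusted p = 7.1e-08). The exception was 2 h, at 0.16, where vehicle was already high at 13.10, 13.37 and 13.22. After 14 days the treated arrays still read 13.53, 13.59 and 13.58 against 12.77, 12.25 and 12.67 in vehicle, a 2.00-fold difference. Over all times its arrays with Wy-14643 lay between 12.77 and 14.10. Groups without overlap, in either direction, were common among all genes tested. Their share with Wy-14643 ran from 16% at 2 h to 41.1% at 18 h, and it was 9.02% at 2 h of clofibrate.

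Slc25a42, which imports coenzyme A into mitochondria, rose early and then returned. At 4 h of Wy-14643 it read 8.72, 9.17 and 8.95 against 6.80, 7.67 and 7.41, with no overlap, a difference of 1.65 ± 0.19 (3.15-fold, limma adjusted p = 2.6e-08). The difference was called from 2 to 18 h, at 0.93, 1.65, 1.30, 1.39 and 0.68, and was 0.50 at 24 h and 0.07 at 14 days, which did not pass. Clofibrate raised it at 4 h, to 8.17, 8.97 and 9.45 against 7.36, 7.64 and 7.63 (1.32 ± 0.24, 2.50-fold, limma adjusted p = 0.0010). At 2 h of clofibrate it read 8.50, 8.68 and 8.70 against 7.60, 7.74 and 7.41, also without overlap, and 1.05 ± 0.24 passed only with the replicate block (adjusted p = 0.034, and 0.054 without).

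Slc25a32, a folate and FAD carrier, rose with Wy-14643 from 4 to 24 h. Its differences there lay between 0.64 and 0.86, and its mean was 0.43 ± 0.06. Clofibrate raised it at 4 h by 0.80 ± 0.21, and its mean by 0.23 ± 0.07 (limma adjusted p = 0.036). Slc25a17, the peroxisomal carrier of coenzyme A and related cofactors, rose with Wy-14643 at 8, 12 and 18 h (0.58, 0.61 and 0.61) and with clofibrate at 8 h. In the latter it read 15.22, 15.54 and 15.80 against 14.32, 14.72 and 14.52, a difference of 1.00 ± 0.24. Slc25a26, which brings S-adenosylmethionine into the matrix, rose by 0.78 ± 0.15 at 18 h of Wy-14643 and by 0.35 ± 0.05 in the mean. Slc25a51, the NAD carrier, passed only at 8 h (0.86 ± 0.27) and had a mean of 0.06 ± 0.09. Slc25a16, linked to coenzyme A, had differences of -0.24 to 0.20 with Wy-14643 and did not pass at any time.

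**Figure D4:**
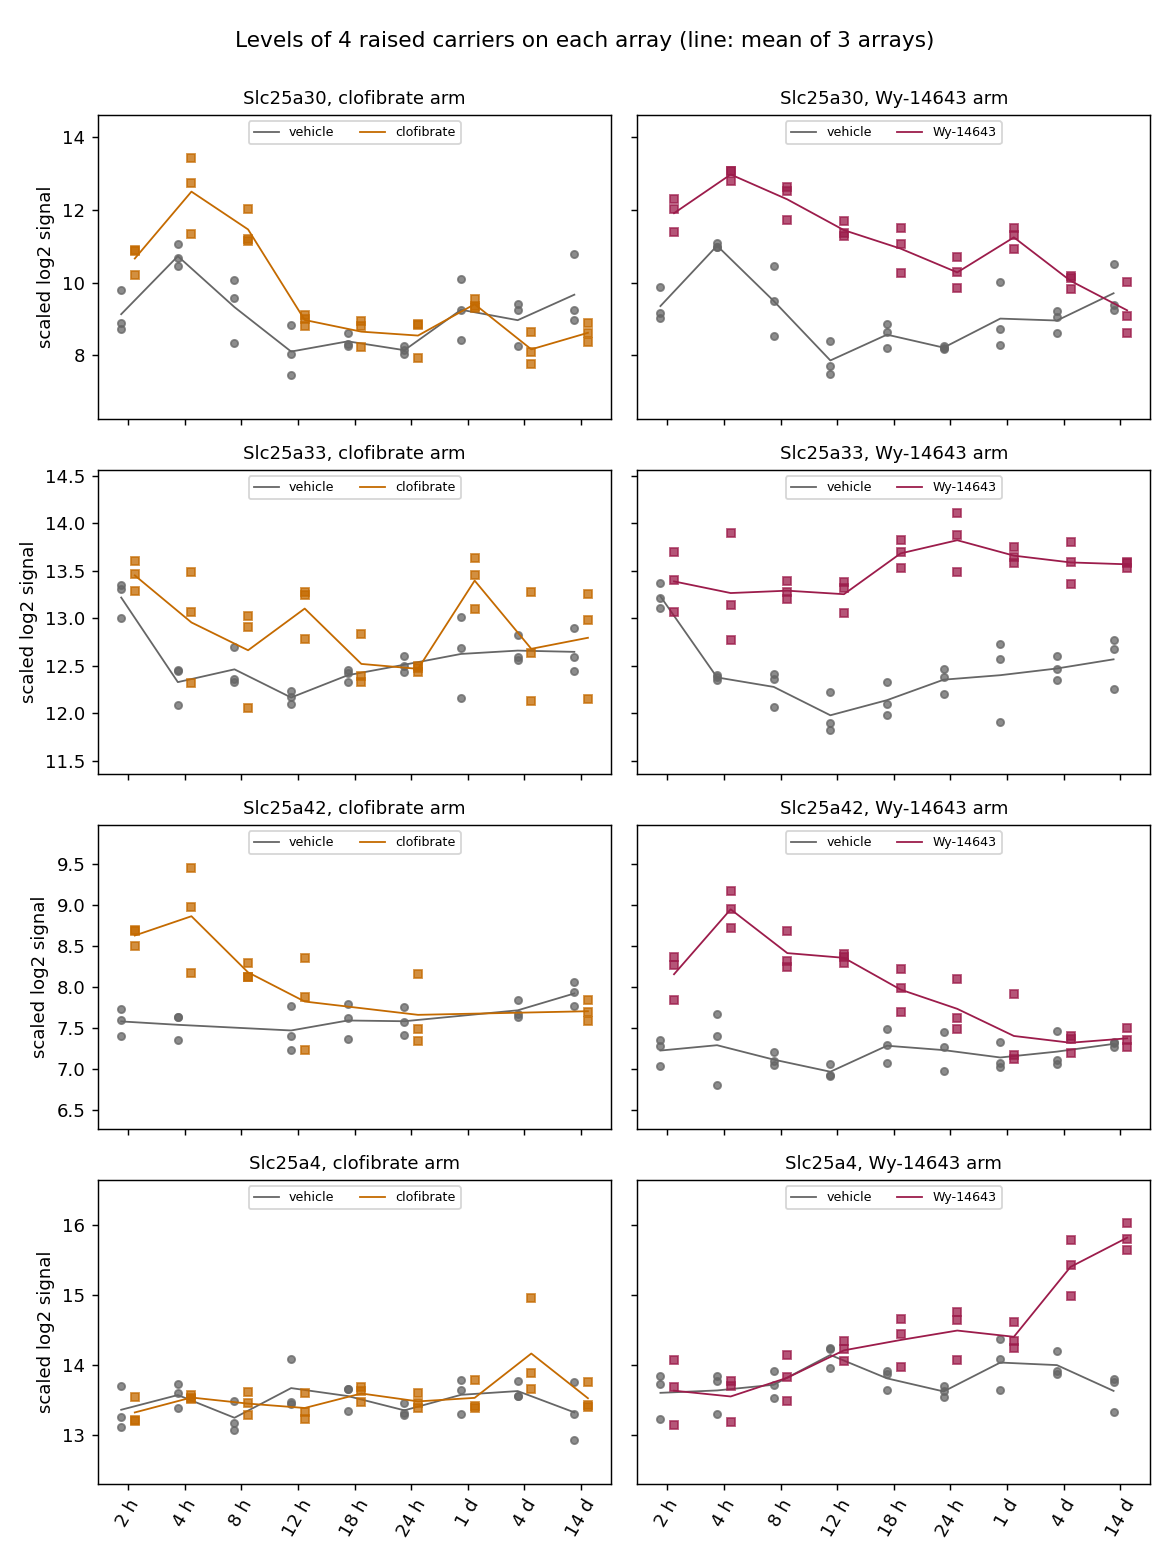
Scaled log2 level of Slc25a30, Slc25a33, Slc25a42 and Slc25a4 on every array against time, treated and vehicle, for each compound, with lines through the means of 3 arrays. With Wy-14643, Slc25a30 and Slc25a42 separate from vehicle in the first day, Slc25a33 from 4 h on and Slc25a4 at the late times.

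Of the carriers of phosphate and adenine nucleotides, 2 of the 4 averaged with Wy-14643 rose, Slc25a4 and Slc25a3, and 0 fell. Of all genes, 20.4% were called higher and 36.4% lower in that mean. Slc25a4 (Ant1), which exchanges ADP for ATP and is the form of heart and skeletal muscle, was close to vehicle until 12 h of Wy-14643, with differences of -0.09 to 0.10. At 24 h it read 14.75, 14.64 and 14.08 against 13.70, 13.63 and 13.54, and at 4 days 15.79, 14.98 and 15.42 against 14.21, 13.92 and 13.87. At 14 days it read 16.02, 15.79 and 15.63 against 13.76, 13.80 and 13.33, a difference of 2.18 ± 0.22 (4.54-fold, limma adjusted p = 4.9e-10). The groups did not overlap at any of these 3 times. These levels lie near the scanner limit, and the gene's second, dimmer probe differed by 4.35 at 14 days. None of 6 skeletal muscle markers (Ckm, Actn3, Myh4, Tnnt3, Acta1 and Myl1) was listed on all arrays, and none had values in both groups of any comparison. A marker listed only in treated livers would be left out in the same way. The part of muscle RNA in the values of Slc25a4 was not tested.

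With clofibrate, Slc25a4 read 13.42, 13.40 and 13.75 at 14 days against 13.75, 12.92 and 13.29. The groups overlapped through vehicle replicate 1, the nearly identical array, and the difference was 0.20 ± 0.22 with it and 0.42 ± 0.23 without it; neither passed. At 4 days treated replicate 1 stood apart, at 14.95 beside 13.89 and 13.65, and the difference was 0.53 ± 0.22 with and 0.61 ± 0.24 without the nearly identical array, which did not pass either way. Slc25a5 (Ant2), the ADP/ATP carrier of proliferating and liver cells, was at or near the scanner limit on nearly all arrays, so that its values are lower bounds and no change is read from them. Slc25a3, the phosphate carrier that feeds ATP synthase, had a mean of 0.21 ± 0.09 with Wy-14643 that passed at an adjusted p of 0.039, but its second probe went the other way, and the average of the probes gave -0.08. The ATP-magnesium/phosphate carrier Slc25a23 fell at 8, 12 and 24 h and at 1 day of Wy-14643, by 0.50 to 0.59 in size. Its relative Slc25a24 fell at 4 h of clofibrate, where it read 7.84, 7.27 and 7.77 against 8.44, 8.11 and 8.19 (-0.62 ± 0.17, limma adjusted p = 0.035), a call that was lost without any 1 of the 3 vehicle replicates.

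Slc25a25, the third of these ATP-magnesium/phosphate carriers, passed in no comparison of a compound with vehicle. It differed widely between mice of a group. The vehicle arrays at 8 h read 12.90, 14.54 and 15.43 in the clofibrate arm and 12.90, 14.36 and 15.19 in the Wy-14643 arm. Its standard error at a single time was 0.58 log2 units with Wy-14643, so differences as large as 0.86 at 2 h did not pass.

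Among the relatives of the uncoupling proteins, Slc25a30 had the largest called differences of the family with either compound. At 2 h of Wy-14643 it already read 11.40, 12.31 and 12.02 against 9.89, 9.15 and 9.03 in vehicle (2.55 ± 0.39, 5.87-fold). At 12 h it read 11.29, 11.69 and 11.36 against 8.41, 7.70 and 7.48 (3.58 ± 0.39, 12.0-fold, limma adjusted p = 2.3e-09). The groups did not overlap at any time from 2 h to 1 day, where every difference was called and none was under 1.96. At 4 days the arrays still did not overlap, at 9.84, 10.17 and 10.14 against 9.22, 8.60 and 9.05, and 1.09 ± 0.39 did not pass. At 14 days they overlapped, at 9.09, 10.01 and 8.62 against 9.38, 9.25 and 10.51.

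Clofibrate raised Slc25a30 at 4 h, to 13.42, 12.75 and 11.34 against 11.06, 10.45 and 10.68 (1.78 ± 0.45, 3.42-fold, limma adjusted p = 0.020). The call at 4 h was lost without treated replicate 1 or 2 or vehicle replicate 2, and in a fit of the 4 h groups alone. At 8 h it read 12.03, 11.21 and 11.15 against 9.57, 8.35 and 10.06 (2.14 ± 0.45, 4.40-fold, limma adjusted p = 0.0011). By 12 h it was at 9.12, 9.00 and 8.80, inside or just above the vehicle range of 7.45 to 8.83, and it did not pass from then on.

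Slc25a14 moved the other way with Wy-14643, by -0.39 ± 0.04 in the mean and by -0.39 to -0.55 at the times from 2 to 24 h. The calls at 2 and 4 h were lost under several left-out replicates. Slc25a27 was compared at 7 times with Wy-14643 and fell at 1 day, by 0.52 ± 0.15. Ucp3, known from muscle, was listed only at 14 days of Wy-14643, at 7.11, 7.23 and 7.31, and was not listed in the vehicle group, so that no fold is given. Slc25a35, whose substrate is not assigned here, was likewise listed in a single group, vehicle at 12 h in the Wy-14643 arm, at 6.80, 6.43 and 6.64.

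Of the carriers of amino acids, 5 of 7 averaged with Wy-14643 fell, beside 36.4% of all genes, and 2 rose, beside 20.4%. Slc25a29, a carrier of basic amino acids, fell at each of the 7 times from 8 h to 14 days. At 1 day it read 8.02, 7.81 and 8.07 against 8.97, 8.74 and 9.51 in vehicle, without overlap, a difference of -1.11 ± 0.21 (2.16-fold lower, limma adjusted p = 0.00013). Slc25a15, the ornithine carrier of the urea cycle, fell at 12, 18 and 24 h and at 1 day. Its 18 h arrays read 10.43, 10.51 and 9.96 against 11.22, 11.25 and 11.37, again without overlap (-0.98 ± 0.16). At 14 days it was at 10.39, 10.15 and 10.33 against 10.53, 10.52 and 10.85, which did not pass.

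Slc25a44, which carries branched-chain amino acids, fell from 8 h to 1 day and at 14 days, by at most 0.74 ± 0.17 at 24 h. Slc25a38, the glycine carrier needed for haem synthesis, fell at 12 h (-0.49) and 18 h (-0.54), with a mean of -0.31 ± 0.04. Slc25a12, the aspartate-glutamate carrier aralar, fell in the mean by 0.25 ± 0.07 and at 1 day by 0.63. In the deposited values without the shift to a common percentile its mean was -0.11 and did not pass. Citrin, Slc25a13, is the aspartate-glutamate carrier of liver and rose instead, by 0.42 to 0.55 from 18 h to 14 days and by 0.28 ± 0.04 in the mean. The glutamate carrier Slc25a22 rose from 4 h to 1 day of Wy-14643, most at 12 h, where it read 12.56, 12.55 and 12.69 against 11.84, 11.73 and 11.40 (0.95 ± 0.15). Clofibrate also raised Slc25a22, which was called higher at 1 time. Its treated group means in the clofibrate arm ran from 11.12 at 24 h to 12.96 at 4 h, and its vehicle group means from 11.32 to 12.00. Slc25a2, an ornithine carrier, was compared at 7 times with Wy-14643 and passed at none.

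**Figure D5:**
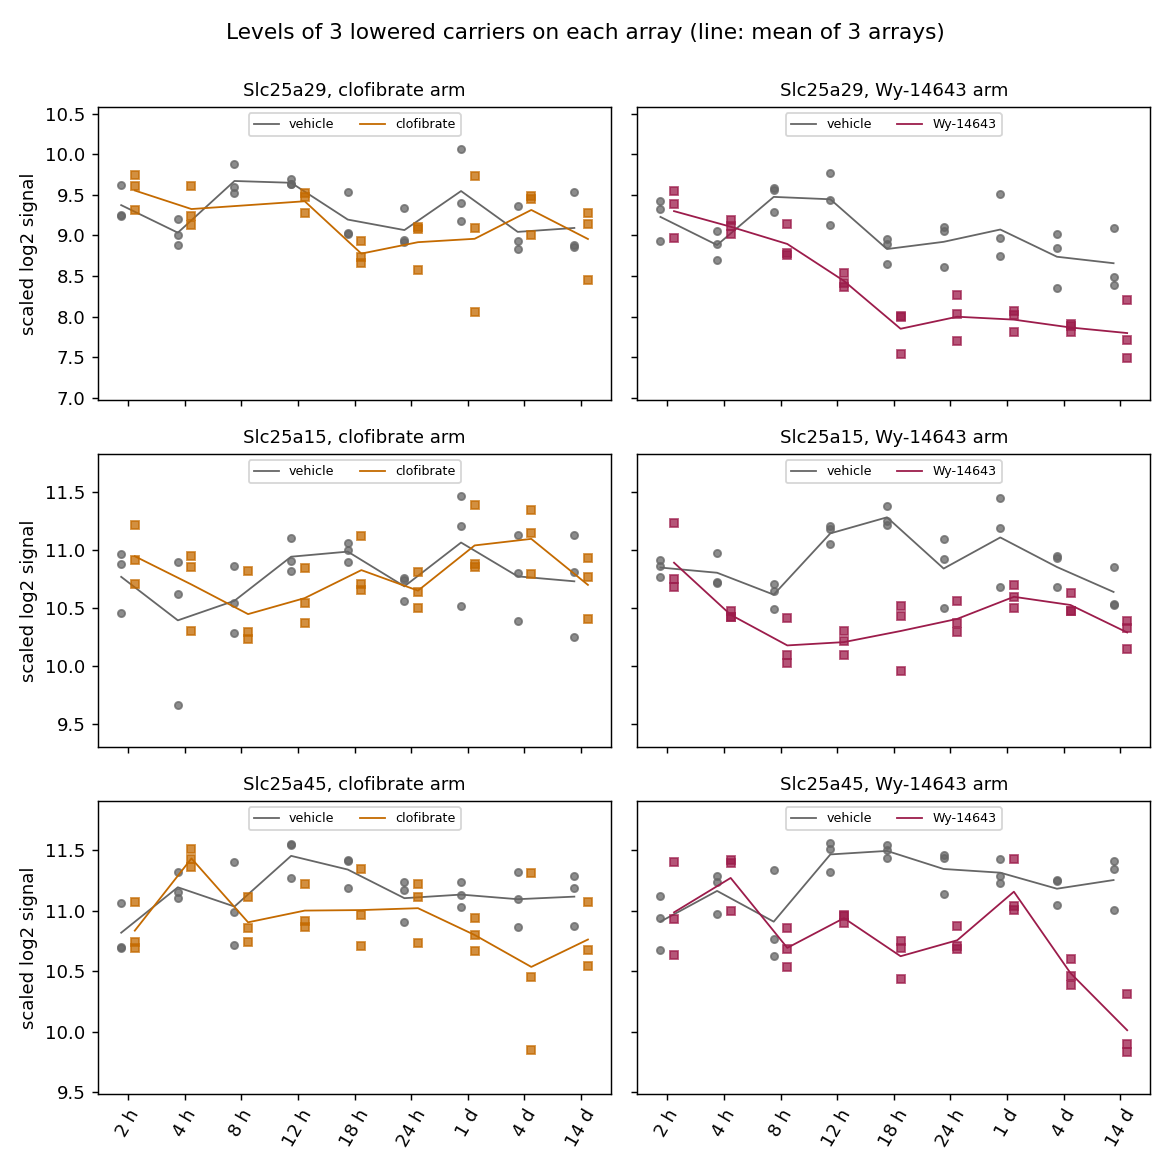
Scaled log2 level of Slc25a29, Slc25a15 and Slc25a45 on every array against time, treated and vehicle, for each compound, with lines through the means of 3 arrays. With Wy-14643, Slc25a29 and Slc25a45 lie below vehicle at 14 days, while Slc25a15 is farthest below it at 12 and 18 h.

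Slc25a10, the dicarboxylate carrier that exchanges malate and succinate for phosphate, rose at 18 h, where it read 15.50, 15.93 and 15.65 against 14.45, 14.72 and 14.77 (1.04 ± 0.30), and by 0.54 ± 0.10 in the mean. Its calls at single times were each lost without some replicates. Slc25a11, the oxoglutarate carrier of the malate-aspartate shuttle, and Slc25a21, the oxodicarboxylate carrier of lysine and tryptophan breakdown, did not pass with either compound. The citrate carrier Slc25a1 fell in the mean by 0.28 ± 0.08, and by 0.14, which did not pass, in the deposited values. Of the glutathione carriers, Slc25a39 rose by 0.16 ± 0.06 in the mean of Wy-14643, while Slc25a40 had -0.06 ± 0.06 and did not pass.

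Slc25a28, mitoferrin 2, fell by 0.14 ± 0.04 in the mean of Wy-14643, a shift that was 0.00 in size in the deposited values. It fell at 8 h of clofibrate, at 11.47, 11.53 and 10.57 against 12.11, 11.71 and 12.19 (-0.82 ± 0.20, limma adjusted p = 0.0058), where replicate 3 lay far below the other treated arrays and the call was lost without it. Slc25a37, the mitoferrin of red cell precursors, passed only at 8 h of clofibrate (0.71 ± 0.23). Of the 3 erythroid markers measured, Alas2 and Hbb-bt fell in the mean of Wy-14643, by 0.42 and 0.20 in size, and the third, Hba-a1, was at -0.22 and did not pass. The summed erythroid level was 15.74 to 16.96 on treated and 16.18 to 17.30 on vehicle arrays of that arm, and its part in the values of Slc25a28 and Slc25a38 was not tested. Kupffer cell markers also fell, 9 of 10 in the mean of Wy-14643, with a summed level of 15.43 to 16.56 against 15.47 to 17.82. So did 3 of 7 tested stellate, 2 of 6 endothelial, 2 of 3 cholangiocyte and 2 of 4 lymphocyte markers, and none rose, beside 36.4% of all genes called lower. Of the hepatocyte markers 2 could be tested, the others being at the scanner limit, and both fell, Ttr at -0.70 ± 0.11 and Apoa1, which lay near that limit, at -0.17 ± 0.04. The part of these markers in the values of the carriers was not tested.

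Slc25a45, which has no substrate assigned here, fell from 12 to 24 h and again at 4 and 14 days. Its largest difference was at 14 days, where it read 9.83, 9.90 and 10.31 against 11.01, 11.34 and 11.41 (-1.24 ± 0.17, 2.36-fold lower, limma adjusted p = 3.1e-07). Slc25a46, an outer membrane protein of mitochondrial dynamics, rose at 8 h (0.83) and 12 h (0.76) of Wy-14643 and at 8 h of clofibrate (0.88 ± 0.20). Slc25a47, a carrier found mainly in liver, rose at 18 h of Wy-14643, to 15.35, 15.25 and 15.59 against 13.79, 14.76 and 14.45 (1.06 ± 0.28). It was at the scanner limit on 14 arrays of that arm at 2 to 12 h, where its values are lower bounds. Slc25a48 and Slc25a34 were compared at 6 and 0 times with Wy-14643 and at 4 and 1 times with clofibrate, and passed at none.

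At 8 h of clofibrate the third replicate weighed on several calls. Slc25a13 read 14.31, 14.03 and 15.64 there against 13.90, 13.93 and 13.96, and its difference fell from 0.73 to 0.24 without that array. Without treated replicate 3 the count at 8 h was 1 of the members, in place of 6, and without vehicle replicate 1 or 3 it was 3. At 4 h the count was 2, 1 and 3 without vehicle replicate 1, 2 and 3. The clofibrate mean had 0 called members without vehicle replicate 2 and 2 without treated replicate 1, vehicle replicate 1 or vehicle replicate 3. These fits rest on fewer arrays and their shares over all genes are not given here. A loss of calls particular to the carriers is therefore not read from them.

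The doses of both compounds were equal in mg/kg, so their effects were compared at each time as the difference of differences. In the mean over times 3 of 28 members had a higher effect with Wy-14643 and 3 a lower one, beside 7.3% and 11% of 8385 genes. The fit treats the vehicle groups of both arms as independent. With the replicate number as a block, 9 members were higher and 6 lower, beside 35.9% of all genes called either way. Slc25a30 differed by 1.43 ± 0.20, Slc25a33 by 0.75 ± 0.11 and Slc25a4 by 0.53 ± 0.11. On the lower side stood Slc25a15 at -0.49 ± 0.10, Slc25a38 at -0.24 ± 0.08 and Slc25a14 at -0.23 ± 0.07, all past the limma threshold. The latter pair lost the call under several other settings.

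At single times, calls in this comparison without the block came at 12, 18 and 24 h and at 14 days, for 1, 2, 2 and 1 members. For Slc25a30 the difference was 2.72 ± 0.61 at 12 h (limma adjusted p = 0.0092), where it was the 1 member called beside 0.46% of all genes, and 2.10 ± 0.61 at 18 h, beside 1.63%. Slc25a33 differed at 18 h by 1.43 ± 0.33 and at 24 h by 1.51 ± 0.33. Its 24 h arrays read 13.48, 13.87 and 14.10 with Wy-14643 and 12.47, 12.49 and 12.43 with clofibrate, whose vehicle read 12.43, 12.49 and 12.60. Slc25a32 differed at 24 h by 0.94 ± 0.28 (limma adjusted p = 0.049), with 1.42% of all genes called higher there. At 14 days Slc25a4 was the member called, at 1.98 ± 0.32, beside 1.31% of all genes, and at 1.77 ± 0.33 without the nearly identical array (limma adjusted p = 0.00025). With the replicate number as a block 2 members were called at 12 h, 8 at 18 h (6 higher, 2 lower), 5 at 24 h (4 and 1), 1 at 1 day, 3 at 4 days (2 and 1) and 3 at 14 days (2 and 1). The block then called 3.66%, 9.8%, 8.71%, 4.77%, 5.95% and 6.4% of all genes at these times.

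At 2, 4 and 8 h 0 members passed in limma's test of the difference of the compounds, with or without the block. At an unadjusted p below 0.05, 0, 3 and 2 members did so, beside 133, 262 and 548 of all genes. For Slc25a30 at 2 h the difference was 1.02 ± 0.61, and for Slc25a42 it was -0.12 ± 0.31. Several mean effects were close, with 95% intervals that bound the difference: -0.19 to 0.18 for Slc25a13, -0.14 to 0.15 for Slc25a11 and -0.19 to 0.13 for Slc25a28. For Slc25a25 the interval ran from -0.55 to 0.59, with a standard error of 0.29, or 0.22 with the block.

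Repeated dosing was examined as the Wy-14643 effect at 14 days minus that at 24 h. Of 34 members 1 had a higher and 2 a lower effect at 14 days (2.11% of 11254 genes were called higher and 0.711% lower). Slc25a4 changed by 1.32 ± 0.32 (limma adjusted p = 0.012). Slc25a30 changed by -2.54 ± 0.55 (limma adjusted p = 0.0046) and Slc25a22 by -0.82 ± 0.22. Slc25a22 went from 12.03, 12.03 and 12.03 against 11.61, 11.56 and 11.38 at 24 h to 10.92, 11.14 and 11.29 against 11.30, 11.54 and 11.42 at 14 days, where -0.30 ± 0.15 did not pass. With the replicate block 6 members were called, beside 13% of all genes. Without treated replicate 3 there were 0, and without treated replicate 1 or vehicle replicate 2 there was 1, with the shares over all genes not given here.

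Vehicle levels of several carriers moved over the first day. In the F test over the 6 vehicle groups from 2 to 24 h, 4 of 28 members passed in the clofibrate arm, beside 10.7% of all genes, and 12 of 33 in the Wy-14643 arm, beside 26.5%. The median range over the times was 0.51 and 0.54 log2 units for the members and 0.50 and 0.47 for all genes. Slc25a30 had the widest called range, 2.62 and 3.16 in the respective arms, high at 4 h and low at 12 h. In the Wy-14643 arm vehicle it read 10.97, 10.97 and 11.10 at 4 h and 8.41, 7.70 and 7.48 at 12 h. Slc25a47 ranged over 1.64 and 1.62, high at 2 h and low at 18 h, and Slc25a32 over 1.03 and 1.19, between the same times. Slc25a46 was the fourth member called in both arms. Deviations of same-numbered vehicle arrays of the arms correlated at 0.92 for Slc25a30 and 0.88 for Slc25a47, at 0.34 for Slc25a32 and at -0.16 for Slc25a46. The labels do not say whether the arms share control livers, so likeness between the arms may not be independent. Hours after dosing and time of day cannot be told apart in this course.

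Genes that act with the carriers were taken from lists, and their values are means over the 9 times of Wy-14643. The lists were chosen with earlier results of these data known, so their counts are a description and not a test. Of the translocases that import carriers, 10 of 13 rose and 0 fell, with a median of 0.29 against -0.07 over all genes, of which 20.4% were called higher. Timm9 and Timm8a1, small chaperones of the intermembrane space, rose by 0.62 ± 0.05 and 0.50 ± 0.06. Timm8b (0.13) and Tomm22 (0.14) were the lowest that passed. Clofibrate raised 1 of 12 in its mean, Timm9, by 0.24 ± 0.07, beside 3.23% of all genes called higher.

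Of 9 listed urea cycle and ornithine enzymes 6 were tested in the mean of Wy-14643, and all 6 fell, with a median of -0.41, beside 36.4% of all genes called lower. Otc, which uses the ornithine that Slc25a15 imports, fell by 0.61 ± 0.07, and Asl by 1.12 ± 0.09. The smallest declines were those of Arg1 (-0.14) and Oat (-0.17). With clofibrate 0 of 7 passed in the mean, beside 5.69% of all genes called either way. Enzymes of the malate-aspartate, glycerol phosphate and citrate shuttles were divided, 3 of 7 higher and 3 lower, beside 20.4% and 36.4% of all genes. Malic enzyme Me1 rose by 1.45 ± 0.14 and the glycerol phosphate dehydrogenase Gpd2 by 1.11 ± 0.08. The aspartate aminotransferase Got1 fell by 1.20 ± 0.09 and the ATP citrate lyase Acly by 0.96 ± 0.13. Gpd2 was the 1 of 9 that rose in the clofibrate mean, by 0.40 ± 0.12, beside 3.23% of all genes called higher.

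Of the enzymes supplying coenzyme A and glutathione, 4 of 9 rose and 1 fell with Wy-14643, with a median of 0.22. Of all genes 20.4% were called higher and 36.4% lower. Ppcs and Dcakd, which take part in coenzyme A synthesis, rose by 1.18 ± 0.05 and 0.87 ± 0.07. The pantothenate kinases Pank1 and Pank2 rose by 0.75 and 0.27, and Gclm, a subunit of glutamate-cysteine ligase, fell by 0.23 ± 0.08. Clofibrate raised Ppcs and Pank1, each by 0.36 ± 0.08. Other mitochondrial channels and carriers were mixed, 4 of 12 higher and 3 lower with a median of -0.03, beside the same shares of all genes. Among them the insertase Mtch2 rose by 0.58 ± 0.09 and the calcium uniporter Mcu by 0.21 ± 0.07, while the sideroflexin Sfxn5 fell by 0.27 ± 0.07 and Mtch1 by 0.23. With clofibrate 0 of 10 passed in the mean, beside 5.69% of all genes called either way.

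Slc25a20, the carnitine-acylcarnitine carrier that was set apart from these members, was called at all 9 times with Wy-14643, with a mean of 1.47 ± 0.04. Clofibrate raised it at 4, 8 and 12 h and by 0.74 ± 0.10 in the mean.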

How the data were processed

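Liver RNA from 36 groups of 3 arrays was measured on one-colour Agilent arrays, with Cy3 labelling per the labels' protocols. The table holds log2 intensities as deposited by the authors; their background correction, normalization and reason for empty values are not given in the sources used here. Depth is not defined for arrays, and 3 arrays per group limit the precision.

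Each array was shifted to a common 75th percentile over 12210 probes. The brightest probe of a gene with values on all arrays compared represented it; genes at the scanner limit in all compared groups were left out. limma 3.58.1 in R 4.3.3 fitted the group means of an arm with a variance trend. Adjusted p-values (Benjamini-Hochberg) cover all genes of a comparison, with a threshold of 0.05. The procedure was also run on simulated data, with an outcome that is not given here. The simulated noise was independent between arrays, so it lacked the deviations that same-numbered arrays share.

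Same-numbered treated and vehicle arrays deviated together (every correlation over 0.1) in 16 of 18 comparisons, with exceptions at 8 h and 1 day of clofibrate, so fits with the replicate number as a block are given where they move a count by over 1.5 times or bear on a call. Every member is accounted for. The rule named the extreme called means of each compound (6 and 6 for Wy-14643, 4 and 4 for clofibrate), the extremes at each time and the 2 highest and 2 lowest genes of each pathway list; Pank1, Pank2 and further values of members were added after they were seen. Members and lists were chosen with earlier results of these data known. Promoter sequences and gene positions are from RefSeq, GRCm38.p6.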

Additional observations from a re-analysis of the deposited data

Results flagged for a closer look

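The following effects differed between the compounds or between durations of dosing by limma's test of the difference itself. Wy-14643 minus clofibrate was 2.72 at 12 h and 2.10 at 18 h for Slc25a30, 1.43 at 18 h and 1.51 at 24 h for Slc25a33, 0.94 at 24 h for Slc25a32 and 1.98 at 14 days for Slc25a4, all on the log2 scale. In the mean over the 9 times it was 1.43 for Slc25a30, 0.75 for Slc25a33, 0.53 for Slc25a4, -0.49 for Slc25a15, -0.24 for Slc25a38 and -0.23 for Slc25a14. The effect of Wy-14643 at 14 days minus that at 24 h was 1.32 for Slc25a4, -2.54 for Slc25a30 and -0.82 for Slc25a22. Groups of 3 arrays are too small for a test of single outlying arrays.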

How the results depend on the processing

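The counts of called members were recomputed under 380 combinations of a comparison and an alternative setting. Of these, 321 stayed within 1.5 times and 59 did not. A count of 0 in both fits was scored as staying, and clofibrate had 0 called members at every time except 4 and 8 h. Of the recomputed values of named members, 652 kept their direction and call, 59 lost the call and 0 changed sign. With the replicate number as a block the count was 1 in place of 0 for clofibrate at 2 h and at 4 days, 2 in place of 0 at 12 h and 11 in place of 4 in its mean. For Wy-14643 it was 5 in place of 3 at 2 h, 12 in place of 6 at 4 h, 23 in place of 14 at 24 h, 18 in place of 11 at 1 day, 9 in place of 5 at 4 days and 14 in place of 6 at 14 days. The block also gave 15 in place of 6 for the mean difference of the compounds. For 14 days minus 24 h it gave 6 in place of 3. In each of these comparisons it called more of all genes as well, 35.9% and 13% in the last pair. It ended no call of a named member.

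In the values as deposited the count was 1 for clofibrate at 12 h and at 1 day, 10 for Wy-14643 at 4 h, 24 at 1 day, 6 for 14 days minus 24 h and 21 for the vehicle course of the Wy-14643 arm. There the share of called genes that were higher was 97.1% at 1 day of Wy-14643 in place of 31.3%, 92.3% at 24 h in place of 38.4% and 18.2% at 8 h of clofibrate in place of 54.9%. The median over all genes moved from -0.15 to 0.47 at 1 day of Wy-14643. In the deposited values 6650 of all genes were called there in place of 2783. The numbers were 1862 in place of 1165 at 4 h and 870 in place of 317 for 14 days minus 24 h. For clofibrate they were 158 in place of 153 at 12 h and 81 in place of 16 at 1 day. Median scaling gave 1 for clofibrate at 2 h and quantile normalization 3 at 4 h. They called 31 and 231 of all genes there, in place of 30 and 289. Scaling on all listed probes gave 10 for clofibrate at 8 h, 7 for Wy-14643 at 1 day, 10 for the mean difference of the compounds and 19 for the vehicle course of the clofibrate arm. That scaling called 3731 of all genes in place of 1081 at 8 h of clofibrate and 2313 in place of 2783 at 1 day of Wy-14643. In the mean difference of the compounds it called 1659 in place of 1531. The average of a gene's probes gave 3 for clofibrate at 4 h and 1 at 12 h. Fits of the compared groups alone, with fewer arrays behind the spread, gave 0 and 2 for clofibrate at 4 and 8 h, and 1, 3, 3 and 3 for Wy-14643 at 2 h, 4 h, 1 day and 14 days. Without dim genes clofibrate had 3 at 4 h and 2 in the mean. Except where noted, the cause was not tested.

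Leaving out 1 replicate gave 0 to 1 called members for clofibrate at 2 h, 12 h and 4 days, 1 to 5 at 4 h, 1 to 7 at 8 h and 0 to 6 in the mean. For Wy-14643 it gave 2 to 3 at 2 h, 4 to 6 at 4 h, 8 to 11 at 8 h, 12 to 15 at 12 h, 11 to 14 at 18 h, 9 to 13 at 24 h, 5 to 9 at 1 day, 4 to 5 at 4 days, 3 to 7 at 14 days and 19 to 23 in the mean. It gave 4 to 9 for the mean difference of the compounds, 0 to 3 for 14 days minus 24 h, and 2 to 3 and 6 to 10 for the vehicle courses of the clofibrate and Wy-14643 arms. Fits with fewer arrays can lose calls in any gene, and the shares over all genes are not given here. These counts do not set the carriers apart from genes at large.

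The settings without the nearly identical vehicle array were chosen after seeing the data and changed no called mean of a named member. Probes at the scanner limit bound only from below, and the empty values leave dim carriers with few comparisons.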
